A study of Mus musculus with 4 samples.

Results

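Dividing cells were counted in the nonparenchymal fraction of mouse liver of mice given carbon tetrachloride (CCl4), which damages hepatocytes, over several weeks and of mice given only its vehicle, corn oil. A cell was called cycling where the unique molecules (UMIs) of Mki67, Top2a, Cenpf, Ccnb1 and Birc5 summed to at least 6 and at least 3 of the 5 genes were detected. By this rule 274 of 25861 kept cells were cycling. Each was placed in a lineage by UMIs: Kupffer with at least 5 of Clec4f, then stellate with at least 3 of Reln, Colec11 and Lrat together, then endothelial with at least 5 of Kdr, Ptprb and Egfl7 together, then other Ptprc-positive cells with at least 1 of Ptprc, the leukocyte gene for CD45. There were 106 endothelial, 72 Kupffer, 64 other Ptprc-positive, 21 stellate and 11 unassigned cycling cells.

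The 4 animals were wild-type male mice aged 8 to 10 weeks. The 2 CCl4 mice were injected intraperitoneally with CCl4, 1 part with 9 parts of corn oil, at a volume of 10 µl per g, and the 2 corn oil mice received the vehicle, in both cases 2 times a week for 5 weeks with killing 48 hours after the last dose. The labels give 1 mouse per library, so the mouse was the replicate in the tests. Hepatocytes had been spun out and dead cells removed on a density gradient before about 10000 viable cells per mouse were loaded (BD Rhapsody), so shares describe the cells that survived isolation.

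Cells enter division through S phase, in which licensed replication origins fire and DNA is copied, and then pass through G2 into mitosis. Genes for origin licensing (the Mcm helicase, Cdc6, Cdt1) and for nucleotide supply are transcribed early under E2F factors, and those for the spindle, kinetochore and cytokinesis later under MuvB, B-MYB and FoxM1. The 5 rule genes belong mainly to the later group, with transcripts that accumulate from S phase to mitosis. Most cells of a resting adult liver are out of the cycle, Kupffer cells can renew by local division, and stellate and endothelial cells are known to divide during repair.

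Mki67 encodes the coat protein of mitotic chromosomes detected in routine staining for division, Top2a the topoisomerase that untangles DNA, Cenpf a kinetochore protein, Ccnb1 the mitotic cyclin B1, and Birc5 the chromosomal passenger survivin. The bases upstream of their RefSeq starts are shown because these genes define the cells counted, and late cell cycle promoters are known for the paired cell cycle genes homology region (CHR, here TTTGAA on either strand or TTTAAA) and CCAAT boxes. Searched over the 160 bases upstream of the start in GRCm38.p6 and trimmed where an annotated transcript begins further upstream, the windows read as follows, 5′ to 3′, with both motifs in capitals. Mki67 lies at chr7:135716451-135716539, Top2a at chr11:99024200-99024349 and Cenpf at chr1:189688108-189688246, all on the minus strand, and Birc5 at chr11:117849077-117849236 on the plus strand.
Mki67: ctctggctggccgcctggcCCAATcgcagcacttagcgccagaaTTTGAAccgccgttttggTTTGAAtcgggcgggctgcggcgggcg
Top2a: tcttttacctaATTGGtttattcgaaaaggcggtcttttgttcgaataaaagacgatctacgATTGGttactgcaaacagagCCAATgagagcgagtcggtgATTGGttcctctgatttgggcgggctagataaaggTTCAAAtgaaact
Cenpf: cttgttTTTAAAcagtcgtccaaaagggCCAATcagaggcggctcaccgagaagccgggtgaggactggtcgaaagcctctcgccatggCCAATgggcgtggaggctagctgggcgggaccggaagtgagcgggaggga
Birc5: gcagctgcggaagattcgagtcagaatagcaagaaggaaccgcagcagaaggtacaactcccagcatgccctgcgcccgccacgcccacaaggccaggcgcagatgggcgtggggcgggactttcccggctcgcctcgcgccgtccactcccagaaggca
The Mki67 window held 2 CHR matches, at -116 and -98 from the start, and 1 CCAAT box. Top2a held 4 CCAAT boxes and 1 CHR match at -23, and Cenpf held 2 CCAAT boxes and 1 CHR match at -154. In Ccnb1, whose window overlaps an annotated exon and is not printed, a CHR match stood at -42 and CCAAT boxes at -99 and -67. No such letters were in the Birc5 window. Of 32817 RefSeq windows of 160 bases, 15.9% held a CHR match, 25.6% a CCAAT box and 4.06% both. No CHR match overlapped a CCAAT box in the printed windows, and a match is a description of letters only.

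The cells were chosen by the UMIs of the rule genes, so those values are given as a description. Mki67 was detected in 273 of the 274 cells, Top2a in 266, Birc5 in 264, Cenpf in 201 and Ccnb1 in 161, and all 5 were detected in 131 cells (47.8%). A near-identical copy, Ccnb1-ps on chromosome 7, could share reads with Ccnb1, so its level is uncertain. The median cycling cell held 36 UMIs of the 5 genes (lowest 6, highest 180), whereas 95.1% of the other 25587 cells held none. The edge of the rule was thinly filled: 11 cells lay just inside it with 6 or 7 UMIs, 13 just outside with 4 or 5 UMIs of at least 3 genes, and 37 reached 6 UMIs with 2 genes or fewer. Cycling cells were deeper than other cells, with a median of 11330.5 UMIs against 5553, and the medians in CCl4 1, CCl4 2, corn oil 1 and corn oil 2 were 12814.5, 12362, 9028 and 13432.5 UMIs.

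Libraries held 5621 to 7247 kept cells with medians of 4441 to 6793 UMIs. The header of the CCl4 1 table gives another analysis run than that of the other 3, so run and mouse cannot be told apart for that library. Pairs of libraries shared 42 to 70 cell barcodes, and 1 barcode was cycling in both libraries of a pair. Doublet scores in the top 5% of a library were found in 8.39% of cycling cells against 4.96% of other cells. The lineage rules overlapped: 55 of the 72 cycling Kupffer cells (76.4%) also met another lineage rule, as did 62.9% of other Kupffer cells, most often the endothelial one. By mouse, such cycling Kupffer cells were 7 of 8 in CCl4 1, 3 of 10 in CCl4 2, 9 of 15 in corn oil 1 and 36 of 39 in corn oil 2. Among other Kupffer cells they were 53.9% and 33.2% in CCl4 mice, against 68.1% and 75.7% in corn oil mice. Whether such cells were joined pairs was not tested.

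The label was checked on cell cycle genes outside the rule, also as a description. In endothelial cells, of the listed genes with at least 50 CPM (UMIs of the summed cells, scaled to the same total in each sum) in the higher state, 20 of 21 spindle genes, 15 of 15 kinetochore genes, 11 of 11 cytokinesis genes, 18 of 19 DNA synthesis genes and 10 of 11 licensing genes were higher in the cycling than in the other cells of all 4 mice. Median log2 differences were 5.62, 5.66, 5.79, 2.41 and 2.24, against -0.05 over 4264 genes, of which 959 were higher in all 4 mice. In Kupffer cells all 12 spindle, 10 kinetochore, 8 cytokinesis, 17 DNA synthesis and 9 licensing genes were higher in all 4 mice, and in other Ptprc-positive cells all 22, 16 and 11 of the later groups and 20 of 21 and 12 of 12 of the earlier ones were. Over all genes at that level, 693 of 3775 in Kupffer cells and 956 of 4116 in other Ptprc-positive cells were higher in all 4 mice. Without the rule genes the spindle, kinetochore, cytokinesis, DNA synthesis and licensing lists held 26, 24, 12, 28 and 22 genes. A gene low in other cells could reach 50 CPM only through the cycling cells, so these counts are partly fixed by that minimum. Other lists were less uniform. Cyclins, kinases and activators were higher in all 4 mice for 7 of 12 genes in endothelial cells, where 1 was lower, for 6 of 9 in Kupffer cells (median 0.66) and for 10 of 14 in other Ptprc-positive cells. Of the E2F, MuvB and FoxM1 regulators, 6 of 9 in endothelial, 2 of 4 in Kupffer (median 0.22) and 6 of 9 in other Ptprc-positive cells were. The plot of summed list levels shows the gap between cycling and other cells by mouse.

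**Figure D1:**
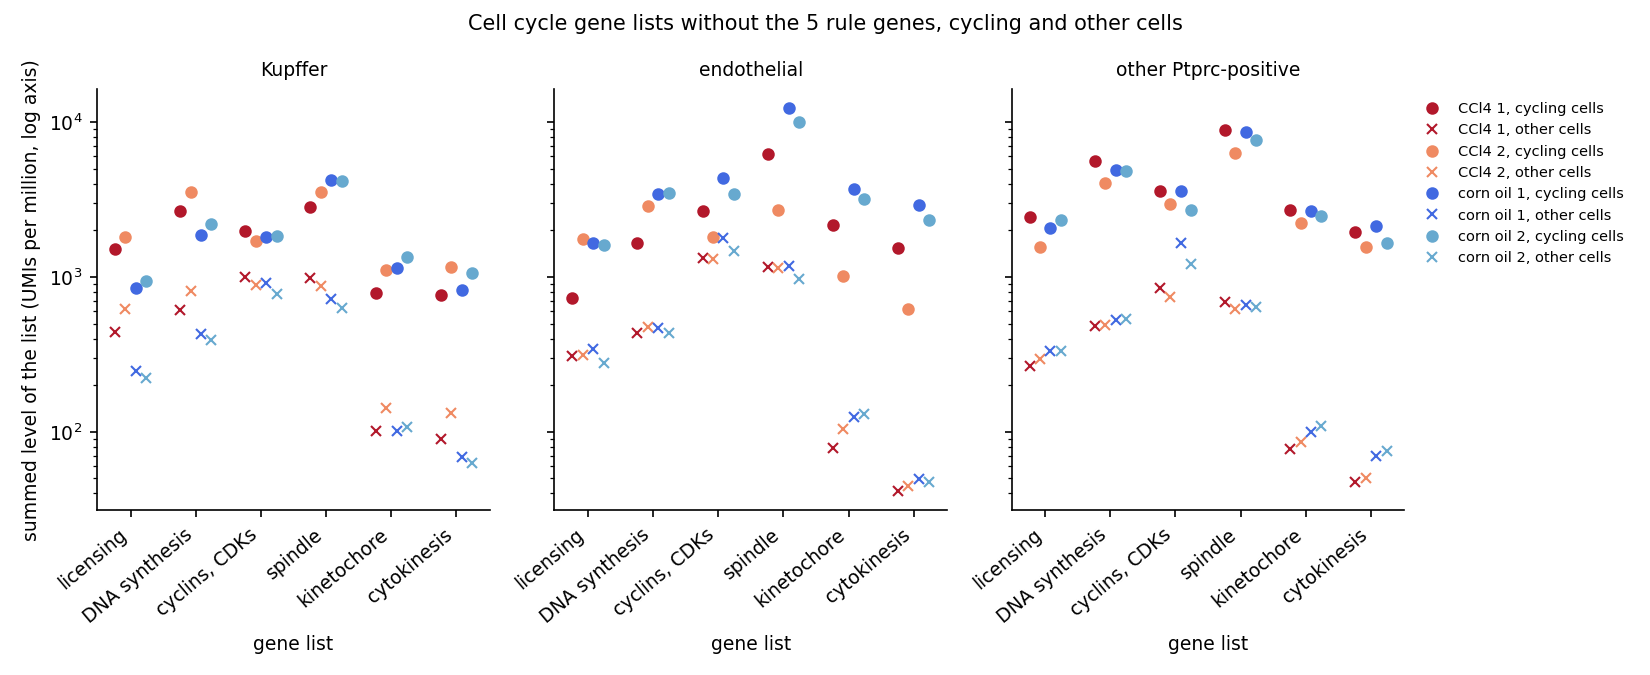
Summed level of 6 cell cycle gene lists without the rule genes, in CPM of the summed cells on a log axis, for cycling cells (circles) and other cells (crosses) of 3 lineages, 1 point per mouse. Circles lie above crosses of the same mouse in every list, and the CCl4 circles of the Kupffer licensing list, 1512 and 1799, stand above the corn oil circles, 850 and 934.

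Outside the cell cycle lists, some of the 10 genes with the largest differences between cycling and other cells in each lineage are given here, picked from those 10 after their values were seen. Pbk, a mitotic kinase, was 5.61 higher (mean log2 ratio over the 4 mice) in cycling Kupffer cells and 6.32 higher in cycling other Ptprc-positive cells. Iqgap3, a scaffold protein linked to proliferation, led in endothelial cells at 6.90, and Diaph3, a formin that nucleates actin, was among the top 10 of all 3 lineages at 6.15 in endothelial, 3.83 in Kupffer and 5.29 in other Ptprc-positive cells. Among the 10 genes lowest in cycling relative to other Ptprc-positive cells were Siglech and Cox6a2, markers of plasmacytoid dendritic cells, at -7.76 and -5.69, and Gpnmb, a gene of lipid-handling macrophages, at -4.45. In endothelial cells the lowest 10 included Vwf, the clotting factor carrier of larger vessels, at -3.59 and Rspo3, a Wnt enhancer of the central vein endothelium, at -3.37.

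Cycling cells made up a smaller share of the kept cells in CCl4 mice. They were 42 of 6141 cells (0.684%) in CCl4 1 and 31 of 5621 (0.552%) in CCl4 2, against 97 of 6852 (1.42%) in corn oil 1 and 104 of 7247 (1.44%) in corn oil 2. The groups did not overlap, and an exact permutation test, two-sided, gave p = 0.33, which is as low as 2 mice against 2 can reach. Over lineages, shares were therefore also compared with edgeR's quasi-likelihood test on numbers of cells, with the lineage's cells as the denominator and Benjamini-Hochberg adjustment over 5 lineages. Per-mouse intervals below are exact 95% binomial ones and cover counting error only.

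Among stellate cells, the matrix-making pericytes of the sinusoid, the share was lower in CCl4 mice by the test. It was 2 of 659 cells (0.303%, 0.0368 to 1.09) in CCl4 1 and 1 of 236 (0.424%, 0.0107 to 2.34) in CCl4 2, against 9 of 432 (2.08%, 0.957 to 3.92) in corn oil 1 and 9 of 418 (2.15%, 0.989 to 4.05) in corn oil 2. The means were 0.364% ± 0.0850 and 2.12% ± 0.0493 (SD, n = 2 each), and the groups did not overlap. The log2 difference was -2.56 with SE 0.900 and an edgeR adjusted p of 0.00185; without CCl4 1 the call was lost (-2.23, adjusted p 0.0741). It rests on 3 CCl4 cells, and the label went against the one of CCl4 2, whose stellate markers summed to 624 CPM and whose conventional dendritic cell markers summed to 2781 CPM. Many cells of this lineage also met the endothelial rule. Among cells that met the stellate rule alone, 1 of 527 and 1 of 189 were cycling in CCl4 mice. In corn oil mice 4 of 190 and 2 of 157 were (-2.41, edgeR adjusted p 0.0417). In the cycling stellate cells of corn oil mice, 9 stellate markers summed to 8592 and 6046 CPM and 10 endothelial markers to 5165 and 6297 CPM. The 10 monocyte/macrophage markers summed to 197 and 1589 CPM in those of CCl4 mice and to 1271 and 9888 CPM in those of corn oil mice, and the part of these other markers in the result was not tested.

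Endothelial cells, the largest lineage, had the lowest cycling share of the 4 named lineages in both CCl4 2 and the corn oil mice. It was 11 of 3215 cells (0.342%, 0.171 to 0.611) in CCl4 1 and 6 of 2898 (0.207%, 0.0760 to 0.450) in CCl4 2, against 51 of 5253 (0.971%, 0.724 to 1.27) in corn oil 1 and 38 of 5344 (0.711%, 0.504 to 0.975) in corn oil 2. The CCl4 values lay below both corn oil values, with means of 0.275% ± 0.0955 and 0.841% ± 0.184 (SD, n = 2 each). The log2 difference of -1.59 (SE 0.727) missed the threshold, with an edgeR adjusted p of 0.0666. It passed in cells thinned to 3000 UMIs (-2.59, adjusted p 0.0187) and with a rule scaled to the depth of the cell (-1.99, adjusted p 0.0439), among others. It also missed under the stricter rule (-1.84, adjusted p 0.197), without the highest doublet scores (-2.03, adjusted p 0.0539) and with at most 15% mitochondrial UMIs (-1.67, adjusted p 0.101). Ptprc, a gene of leukocytes, was detected in 5 of 11 and 3 of 6 cycling endothelial cells of CCl4 mice, against 8 of 51 and 6 of 38 of corn oil mice, and in 11.3% and 8.78% against 4.40% and 4.37% of other endothelial cells. Every endothelial and stellate cell with a Ptprc UMI was then left out, a filter chosen after seeing the data. The log2 differences were -2.16 in endothelial and -3.15 in stellate cells. This filter took out a larger part of the cycling endothelial cells in CCl4 than in corn oil mice. The lower values are thus partly fixed by it and are given without a test. Ptprc was detected in 1 of 2 and 1 of 1 cycling stellate cells of CCl4 1 and CCl4 2, so none was left in CCl4 2. The stellate mean of CCl4 mice was then 0.0893% ± 0.126 (SD, n = 2).

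**Figure D2:**
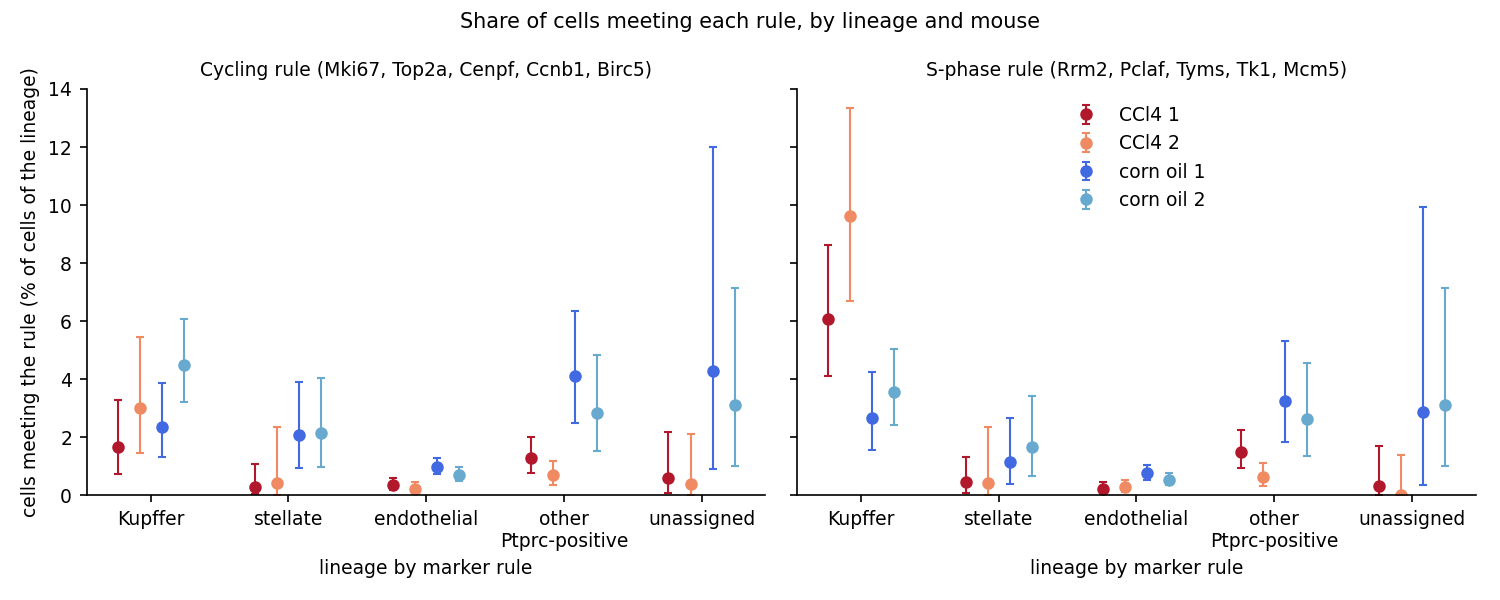
Share of each lineage's cells that met the cycling rule (left) and an S-phase rule on Rrm2, Pclaf, Tyms, Tk1 and Mcm5 (right), in percent, 1 point per mouse with its exact 95% binomial interval, which covers counting error only. By the cycling rule CCl4 points lie below corn oil points in every lineage but Kupffer, where they overlap, and by the S-phase rule the CCl4 Kupffer points, 6.08% and 9.64%, lie above the corn oil ones, 2.67% and 3.57%.

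Other Ptprc-positive cells, which pool lymphocytes, monocytes, macrophages and dendritic cells, also had a lower cycling share in CCl4 mice. It was 19 of 1464 cells (1.30%, 0.783 to 2.02) in CCl4 1 and 13 of 1894 (0.686%, 0.366 to 1.17) in CCl4 2, against 19 of 461 (4.12%, 2.50 to 6.36) in corn oil 1 and 13 of 456 (2.85%, 1.53 to 4.83) in corn oil 2. The groups did not overlap, with means of 0.992% ± 0.432 and 3.49% ± 0.898 (SD, n = 2 each) and a log2 difference of -1.83 (SE 0.578, edgeR adjusted p 0.0167). The numbers of cycling cells were the same, 19 and 13 in each group, while the denominators differed. The call ended under the stricter rule (-1.99, adjusted p 0.113) and without the highest doublet scores (-1.83, adjusted p 0.0539). As a share of all kept cells the sign turned to 0.25 on the log2 scale (adjusted p 0.683), and the call was lost whichever mouse was left out: -2.32 for CCl4 1, -1.42 for CCl4 2, -1.54 for corn oil 1 and -2.07 for corn oil 2 (edgeR adjusted p 0.0527 to 0.344).

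The make-up of that pool differed between the groups. By at least 3 detected markers of 1 type, monocyte/macrophage-like cells numbered 1152 and 1620 in CCl4 mice, against 121 and 105 in corn oil mice, and 2 and 5 of them (0.174% and 0.309%) were cycling, against 3 and 3 (2.48% and 2.86%). Exact 95% intervals were 0.0210 to 0.626% and 0.100 to 0.719% in CCl4 mice, against 0.514 to 7.07% and 0.593 to 8.12% in corn oil mice. These shares did not overlap, and with 13 cycling cells in all they were not tested. Of T/NK-like cells 9 of 40 (22.5%) and 1 of 61 (1.64%) were cycling in CCl4 mice, against 11 of 169 (6.51%) and 5 of 222 (2.25%) in corn oil mice, so that the groups overlapped and CCl4 1 had the highest value (exact 95% interval 10.8 to 38.5%). Conventional dendritic-like cells had 3 of 39 (7.69%) and 0 of 11 in CCl4 mice, against 3 of 27 (11.1%) and 3 of 18 (16.7%) in corn oil mice. None of 258 plasmacytoid dendritic-like cells was cycling (exact 95% interval up to 1.42%), and none of 38 B/plasma-like cells was.

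**Figure D3:**
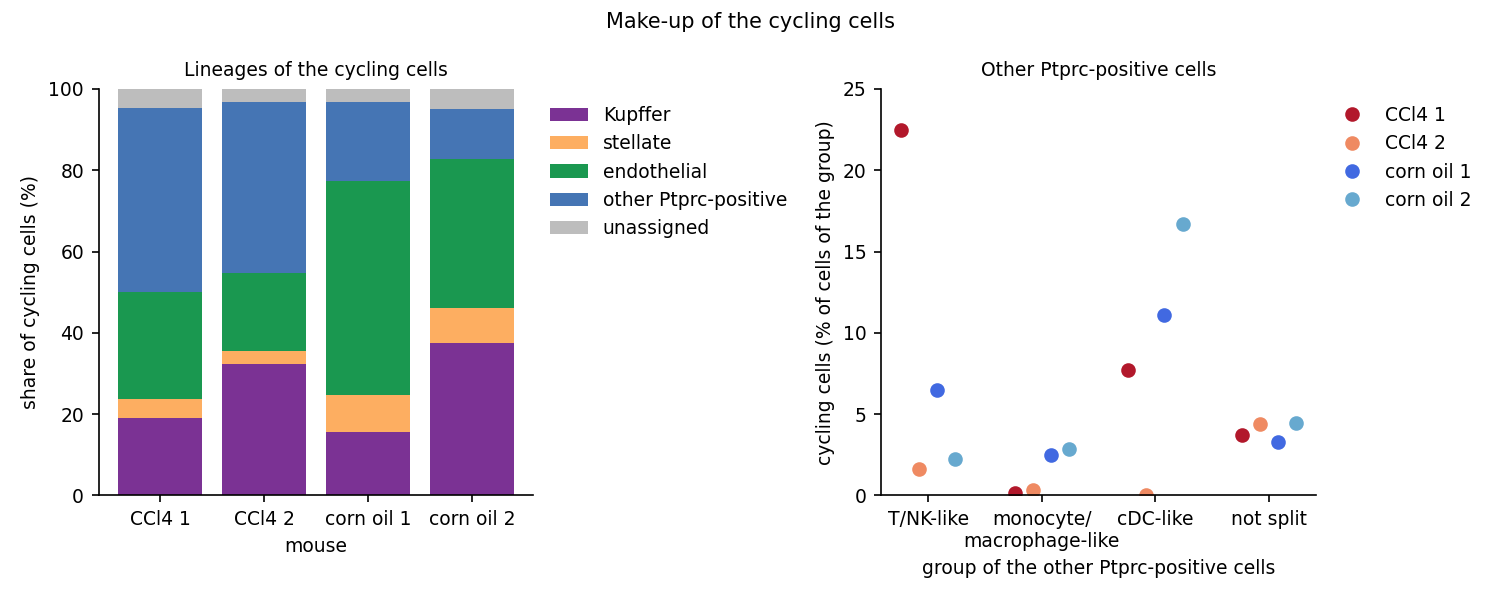
Left, lineages of the cycling cells as a stacked share of each mouse's cycling cells in percent. Right, cycling share in percent of 3 marker-defined groups of other Ptprc-positive cells and of those not split, 1 point per mouse. Other Ptprc-positive cells made up 45.2% and 41.9% of cycling cells in CCl4 mice, against 19.6% and 12.5% in corn oil mice, and endothelial cells 26.2% and 19.4%, against 52.6% and 36.5%.

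Kupffer cells, the resident macrophages of the sinusoid, showed no difference in cycling share that the test could call. It was 8 of 477 cells (1.68%, 0.727 to 3.28) in CCl4 1 and 10 of 332 (3.01%, 1.45 to 5.47) in CCl4 2, against 15 of 636 (2.36%, 1.33 to 3.86) in corn oil 1 and 39 of 869 (4.49%, 3.21 to 6.08) in corn oil 2. The groups overlapped, with means of 2.34% ± 0.944 and 3.42% ± 1.51 (SD, n = 2 each) and a log2 difference of -0.61 (SE 0.592, edgeR adjusted p 0.324). Without corn oil 2 the difference was -0.05, and with a rule of 3 UMIs and 2 genes it turned to 0.12 (adjusted p 0.795). Cells thinned to 3000 UMIs gave 0.210% and 0.602% in CCl4 mice against 1.13% and 1.55% in corn oil mice (-1.83, adjusted p 0.0852). Among cells that met the Kupffer rule alone, 1 of 217 and 7 of 222 were cycling in CCl4 mice. In corn oil mice 6 of 204 and 3 of 205 were (-0.27, edgeR adjusted p 0.738). The log2 difference was less negative in Kupffer than in endothelial cells by 1.11, stellate cells by 2.03 and other Ptprc-positive cells by 1.33. Exact permutation p were 0.667, 0.33 and 0.667, where 0.33 is the smallest possible.

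Thinning to 3000 UMIs left out 13 and 20 shallower cells in CCl4 mice, against 402 and 1083 in corn oil mice, and left the other lineages lower in CCl4 mice. Among other Ptprc-positive cells of corn oil mice the denominators fell from 461 to 337 and from 456 to 226. Their cycling cells held at least 4260 and 5112 UMIs, so leaving out shallow cells by itself raises these shares. Stellate cells had 0 (which allows up to 0.459%) and 0.426% in CCl4 mice against 1.77% and 1.39% in corn oil mice. Endothelial cells had 0.187% and 0.0346% against 0.793% and 0.606%, and other Ptprc-positive cells 0.958% and 0.478% against 5.04% and 4.87%. Adjusted p-values were 0.0187, 0.0187 and 0.0130. Unassigned cells, with 2 of 326 and 1 of 261 cycling in CCl4 mice against 3 of 70 and 5 of 160 in corn oil mice, differed by -2.63 (SE 0.977, edgeR adjusted p 0.00550) on 11 cycling cells. That call ended under the stricter rule (-2.16, adjusted p 0.113) and as a share of all kept cells (-1.10, adjusted p 0.268).

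The 5 rule genes act late in the cycle, so a second count was made after the data were seen, with the same cutoffs on genes of S phase: Rrm2 and Tyms of nucleotide synthesis, Tk1 of nucleotide salvage, Pclaf, the PCNA clamp factor, and Mcm5 of the replicative helicase. In Kupffer cells 29 of 477 (6.08%) and 32 of 332 (9.64%) met it in CCl4 mice, against 17 of 636 (2.67%) and 31 of 869 (3.57%) in corn oil mice. Both CCl4 values lay above both corn oil values, the opposite order to the other 4 lineages, and the difference between lineages was not tested. Per 10000 UMIs of each cell the Kupffer means were 4.13% ± 1.40 in CCl4 mice and 2.27% ± 0.537 in corn oil mice (SD, n = 2 each), a log2 difference of 0.81 in place of 1.29. Kupffer cells that met the S-phase rule alone numbered 22 and 23 in CCl4 mice, against 6 and 4 in corn oil mice, and held a median of 1 and 2 UMIs of the 5 late genes, against 4.5 and 4.5. Their median depth was 27478 and 22334 UMIs, against 17269.5 and 25666 UMIs. Over all lineages 183 cells met both rules, 91 the cycling rule alone and 95 the S-phase rule alone.

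Within cycling Kupffer cells, 11 of 18 immediate early and stress genes were lower in CCl4 mice and 6 of 17 ribosome biogenesis genes were higher, while at most 2 genes of any cell cycle list were called. The sums held 231425 and 246219 UMIs in CCl4 mice, against 338721 and 909910 UMIs in corn oil mice, from 8 and 10 against 15 and 39 cells. This comparison used a minimum of 5 cells per mouse, chosen after seeing the data. Of 5116 genes tested with edgeR's quasi-likelihood test, 95 (1.86%) were higher and 152 (2.97%) lower at an adjusted p under 0.05, 247 in all (4.83%).

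Of 13 tested licensing genes, 2 rose and 0 fell, with a list median log2 difference of 0.78 against -0.03 over all genes. Mcm5 had 216 and 402 CPM in cycling Kupffer cells of CCl4 mice, against 118 and 112 CPM in those of corn oil mice. The groups did not overlap, and it rose by 1.33 (SE 0.312, edgeR adjusted p 0.0377). Cdc6, which loads the helicase at origins, had 77.8 and 60.9 CPM against 20.7 and 19.8 CPM and rose by 1.66 (edgeR adjusted p 0.0429). None of 8 E2F, MuvB and FoxM1 regulators was called (median 0.64). Of 23 DNA synthesis genes 2 rose (list median 0.43), Uhrf1, which keeps DNA methylation through replication, and Ung, which removes uracil from DNA. Uhrf1 had 186 and 191 CPM in CCl4 mice against 65.0 and 69.2 CPM in corn oil mice (1.37, edgeR adjusted p 0.0234). Chek1, the replication checkpoint kinase, rose by 2.09, with 47.5 and 44.7 CPM in CCl4 mice against 14.8 and 7.69 CPM in corn oil mice (edgeR adjusted p 0.0400). Leaving out a mouse ended several of these calls. Mcm5 was lost without CCl4 2 (0.82, adjusted p 0.154) and without corn oil 2 (1.31), Uhrf1 without corn oil 2 (1.45), Ung without CCl4 1, CCl4 2 or corn oil 1, and Cdc6 and Chek1 without any 1 of the 4, in edgeR fits. DESeq2 did not call Mcm5 (1.35, adjusted p 0.0702) or Uhrf1 (1.40, adjusted p 0.0891).

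Of 17 spindle genes 2 fell and 0 rose (median -0.60), and of 11 kinetochore genes none was called (median -0.56, all 11 negative). None was called of 11 cytokinesis genes (median -0.20), 14 condensin and cohesin genes (median -0.05, 6 positive and 8 negative) and 13 cyclins, kinases and activators (median -0.12). Stmn1, a regulator of tubulin assembly, had 216 and 329 CPM in cycling Kupffer cells of CCl4 mice, against 679 and 576 CPM in those of corn oil mice. It fell by 1.29 on the log2 scale without overlap (SE 0.250, edgeR adjusted p 0.0203). Ckap2, a spindle protein, fell by 2.44, with 25.9 and 4.06 CPM in CCl4 mice, 6 and 1 UMIs, against 91.5 and 64.8 CPM in corn oil mice (edgeR adjusted p 0.0416), and was not called without CCl4 2 (-1.63). The rule sets a floor under 5 late genes, so the balance of early and late genes is partly fixed by it.

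Growth and stress genes showed larger shares of calls. Of 17 ribosome biogenesis genes 6 rose and 0 fell (median 1.07). Nop56, of the ribosomal RNA methylation complex, had 203 and 280 CPM in cycling Kupffer cells of CCl4 mice, against 73.8 and 74.7 CPM in those of corn oil mice (1.60, SE 0.291, edgeR adjusted p 0.0187), and Srm, spermidine synthase, had 69.1 and 65.0 CPM against 11.8 and 12.1 CPM (2.35, edgeR adjusted p 0.0194). The Srm call was kept only without corn oil 1, at 2.33 to 2.40 in the other 3 fits. Of 18 immediate early and stress genes 11 fell and 0 rose (median -1.28). Egr1, a transcription factor induced within minutes of stimulation, had 609 and 353 CPM in CCl4 mice against 2108 and 2234 CPM in corn oil mice and fell by 2.28 on the log2 scale (SE 0.258, edgeR adjusted p 0.00143). Such genes also respond to cell isolation, and other Kupffer cells moved the same way, with 9 of 18 lower and 0 higher.

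Of 7 tested monocyte/macrophage markers none rose and 1 fell, Ccr2 (median -0.24, 5 of 7 negative), and of 9 Kupffer markers 1 rose, Marco. Several of the genes called with the largest increases are known from macrophages, Marco among them. Mmp12, the macrophage elastase, had 877 and 593 CPM in cycling Kupffer cells of CCl4 mice, against 0 and 2.20 CPM in those of corn oil mice, so the fitted 8.51 rests on 2 corn oil UMIs (edgeR adjusted p 5.54e-06). Marco, a scavenger receptor, had 3366 and 5710 CPM against 965 and 591 CPM (2.46, edgeR adjusted p 0.00290), and Il1rn, the interleukin-1 receptor antagonist, 264 and 581 CPM against 11.8 and 16.5 CPM (4.69, edgeR adjusted p 0.000885). The largest called decreases, -7.50 to -3.71, were those of Fmo2, Saa3, Fn1, Edn1, Hand2, Gm13889, Trove2, Rspo3, Prelp and Ptgis. Each rested on 0 to 5 UMIs per CCl4 mouse, and not all of these calls held with 1 mouse left out. Trp53inp1, a p53 target, fell by 2.70, with 8.64 and 8.12 CPM against 67.9 and 42.9 CPM (edgeR adjusted p 0.0305), a call kept only without CCl4 1. Ccr2, the receptor of monocytes entering tissue, fell by 2.96, with 25.9 and 8.12 CPM against 145 and 108 CPM (edgeR adjusted p 0.0117).

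Markers of other cell types moved with these results. In cycling Kupffer cells 2 of 10 tested endothelial markers fell, Stab2 (not called without corn oil 2, -1.07) and Fcgr2b, and the 10 summed to 3176 and 1511 CPM in CCl4 mice against 4656 and 4828 CPM in corn oil mice. Stellate markers summed to 955 and 272 CPM against 1435 and 2166 CPM. T/NK markers were at 0 in all 4 mice. Without the cells of the highest doublet scores 6 genes were called, among them Mmp12, Il1rn, Slamf9 and Egr1. None of the early or late cycle genes named here was called then, with differences of 1.39 for Mcm5, 1.53 for Uhrf1 and -1.39 for Stmn1 (edgeR adjusted p 0.107, 0.0814 and 0.0767). Nop56 (1.46), Srm (2.58), Marco (2.39), Ccr2 (-3.01) and Trp53inp1 (-2.59) were not called either, with edgeR adjusted p of 0.0638 to 0.0926. The count was 540 without CCl4 1 and 164 without corn oil 2.

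In the other Kupffer cells, those outside the cycling rule, 15 of 20 ribosome biogenesis genes and 7 of 20 licensing genes were higher in CCl4 mice. These cells include those that met the S-phase rule alone, a rule that holds Mcm5. They were 22 of 469 and 23 of 322 cells in CCl4 mice, against 6 of 621 and 4 of 830 in corn oil mice. Their part in the differences given here and in the interaction below was not tested. Of 12216 genes 600 (4.91%) were higher and 491 (4.02%) lower, 1091 in all (8.93%). The licensing genes called were Mcm2 to Mcm6, Cdt1 and Gins1 (list median 1.29, all 20 positive, against -0.01 over all genes), and the ribosome biogenesis median was 1.09. Of 28 DNA synthesis genes 4 rose (median 0.96), and of 17 E2F, MuvB and FoxM1 regulators 1 did (median 0.29). Mcm5 had 52.7 and 98.6 CPM in other Kupffer cells of CCl4 mice, against 16.9 and 10.2 CPM in those of corn oil mice (2.44, SE 0.368, edgeR adjusted p 0.0244). Mcm2 had 25.3 and 32.8 CPM against 7.93 and 5.22 CPM (2.10, edgeR adjusted p 0.0182). None of 16 spindle genes was called in this state (median 0.54), and Stmn1 had 16.7 and 24.2 CPM in CCl4 mice against 17.3 and 14.9 CPM in corn oil mice, which overlap. Of 18 cycle inhibitors and p53 targets 4 fell and 1 rose. Cdkn1c, the p57 inhibitor, had 9.29 and 13.4 CPM against 33.4 and 49.9 CPM and fell by 1.95 on the log2 scale (edgeR adjusted p 0.0242), while Cdkn2a, the p16 and p19 locus, rose by 1.93 with 5.20 and 8.06 CPM against 2.15 and 1.21 CPM (edgeR adjusted p 0.0486). Mcm2, Mcm5, Cdt1, Cdkn1c and Cdkn2a were called neither without corn oil 1 nor without corn oil 2 (Mcm5 2.80 and 2.12), and Cdkn2a was also lost without CCl4 2 (1.62). Mcm5 (2.58), Cdkn1c (-2.03) and Cdkn2a (2.02) were not called without the highest doublet scores. The count of calls was 526 with CCl4 2 left out, 16 with corn oil 1 left out, 7 with corn oil 2 left out and 155 without the highest doublet scores.

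**Figure D4:**
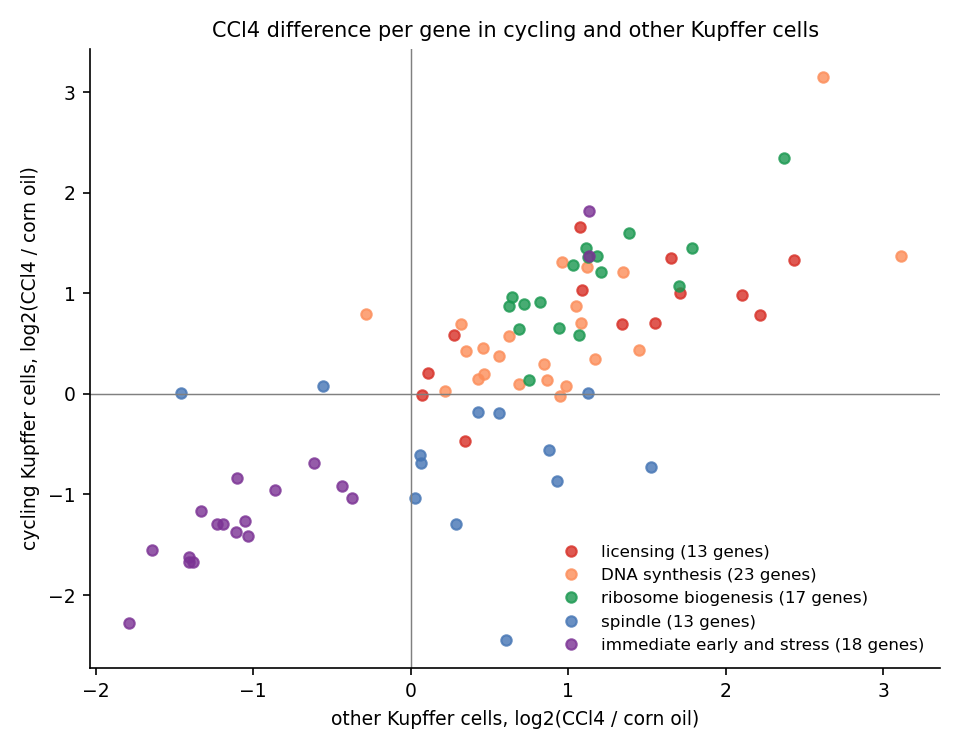
Log2 difference between CCl4 and corn oil mice per gene, in cycling Kupffer cells (vertical) and other Kupffer cells (horizontal), for the genes of 5 lists tested in both. Licensing, DNA synthesis and ribosome biogenesis genes lie mostly right of and above 0, immediate early genes mostly left of and below 0, and spindle genes mostly below 0 in cycling cells; both axes share no cells but share the mice.

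Whether the CCl4 difference of a gene itself differed between cycling and other Kupffer cells was tested as an interaction with the mouse as a block. Of 11305 genes 1 (0.00885%) had a higher and 61 (0.540%) a lower CCl4 difference in cycling cells, 62 in all (0.548%), with a median of -0.15 over all genes. Stmn1 differed by -1.61 (edgeR adjusted p 3.02e-06), Cenpe, a kinetochore motor, by -2.32 (edgeR adjusted p 4.27e-05) and Tpx2, a spindle assembly factor, by -2.30 (edgeR adjusted p 8.78e-05). Mcm5 and Uhrf1, higher in both states, differed by -1.20 (edgeR adjusted p 0.0240) and -1.89 (edgeR adjusted p 0.00327). In all, 3 of 26 spindle genes and 1 of 24 kinetochore genes were called, with medians of -1.13 and -1.50. Low p-values of this test did not require both mice of a group to move. The antibody light chain Igkc, with 841 UMIs in corn oil 2 and 1 in corn oil 1, had an edgeR adjusted p of 1.15e-10. Without corn oil 2, which holds 39 of the 72 cells, 24 genes were called and neither Cenpe, Tpx2, Mcm5 nor Uhrf1 was (-1.51, -1.38, -0.77 and -0.83). Without CCl4 2, 33 were called, and Mcm5, Tpx2 and Uhrf1 were not (-1.21, -1.87 and -1.39); Mcm5 was also lost without CCl4 1 (-1.09). Monocyte/macrophage markers moved with this result, 7 of 10 of them with a lower CCl4 difference in cycling cells; their part in it was not tested.

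In cycling endothelial cells, 4 of 8 tested monocyte/macrophage markers were higher in CCl4 mice and 3 of 24 spindle genes were lower, with at most 1 gene called in any other cell cycle list. The sums held 183697 and 104568 UMIs from 11 and 6 cells in CCl4 mice, against 494862 and 365739 UMIs from 51 and 38 cells in corn oil mice, again with the minimum of 5 cells. Of 5243 genes 102 (1.95%) were higher and 31 (0.591%) lower by edgeR, 133 in all (2.54%), and the count was 311 without CCl4 1, 221 without CCl4 2 and 204 without corn oil 2. Spindle genes gave 3 of 24 lower and 0 higher (median -1.28, all 24 negative, against -0.01 over all genes). The kinetochore, cytokinesis and condensin lists gave 1 lower of 19, 12 and 18 (medians -0.89, -1.15 and -0.92), and none of 15 licensing (median -0.42), 23 DNA synthesis (median -0.81) or 16 checkpoint and mitotic exit genes (median -0.90) was called.

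Stmn1 had 446 and 354 CPM in cycling endothelial cells of CCl4 mice, against 1532 and 1195 CPM in those of corn oil mice, and fell by 1.71 on the log2 scale (SE 0.276, edgeR adjusted p 0.0152). Nusap1, which bundles spindle microtubules, had 223 and 86.1 CPM against 592 and 454 CPM and fell by 1.64 (edgeR adjusted p 0.0495). Sgo2a, a protector of centromere cohesion, had 98.0 and 95.6 CPM against 362 and 336 CPM and fell by 1.80 (edgeR adjusted p 0.0202), and Cit, the citron kinase of cytokinesis, fell by 1.85 (edgeR adjusted p 0.0404). None of these overlapped between groups. Nusap1 (-1.21) and Cit (-1.58) were not called without CCl4 2. Myc, a driver of growth, rose by 2.32, with 158 and 105 CPM against 32.3 and 21.9 CPM (edgeR adjusted p 0.0255), and was not called without CCl4 1 (2.00). Other endothelial cells, of whose 13365 genes 586 (4.38%) were higher and 402 (3.01%) lower in CCl4 mice, 988 in all (7.39%), had 179 and 90.1 CPM of Myc in CCl4 mice against 13.9 and 14.2 CPM in corn oil mice. Cdkn2d, the p19 inhibitor of CDK4 and CDK6, fell by 1.92, and Igf1r, the insulin-like growth factor receptor, by 2.53 (edgeR adjusted p 0.0481 and 0.0466). Both were lost without CCl4 1 (-1.75 and -1.81) and without corn oil 1 (-1.78 and -2.55), and Igf1r also without corn oil 2 (-2.55). DESeq2 called neither Myc (adjusted p 0.0598), Cit (0.170), Cdkn2d (0.245) nor Igf1r (0.175), at differences of 2.32, -1.89, -1.91 and -2.50.

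Of 8 tested monocyte/macrophage markers 4 rose in the same cells (Trem2, Gpnmb, Itgam and Lyz2), as did 2 of 4 Kupffer markers (Cd5l, which DESeq2 did not call, and Slc40a1). Lyz2, lysozyme, had 1225 and 1865 CPM in cycling endothelial cells of CCl4 mice, against 295 and 334 CPM in those of corn oil mice (2.35, SE 0.310, edgeR adjusted p 0.00633). Gpnmb had 310 and 354 CPM against 2.02 and 0 CPM, and Ccl6, a macrophage chemokine, 882 and 1004 CPM against 28.3 and 32.8 CPM (4.99, edgeR adjusted p 0.000128). The 10 monocyte/macrophage markers summed to 2444 and 3883 CPM against 752 and 612 CPM, 9 Kupffer markers to 1132 and 1396 CPM against 271 and 345 CPM, and 10 endothelial markers to 8024 and 6015 CPM against 8031 and 9906 CPM. At least 10 macrophage marker UMIs per 10000 were held by 4 of 11 and 3 of 6 of these cells, against 6 of 51 and 3 of 38. UMIs of the 5 rule genes per 10000 had medians of 26.3 and 7.68 against 57.0 and 41.7. The part of macrophage RNA in these differences was not tested.

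The interaction in endothelial cells gave 59 genes (0.468%) with a higher and 91 (0.722%) with a lower CCl4 difference in cycling than in other cells, of 12603, 150 in all (1.19%). Of 26 spindle genes 7 were lower (median -1.04 against -0.17 over all genes), and of 17 cyclins, kinases and activators 4 were (Ccna2, Cdk1, Cks1b and Cks2; median -1.16). Ckap2 differed by -3.19 (edgeR adjusted p 7.92e-12) and Stmn1 by -1.85 (edgeR adjusted p 7.64e-08). Ckap2 had 234 and 66.9 CPM in cycling cells of CCl4 mice against 489 and 440 CPM in those of corn oil mice, and 2.55 and 1.97 CPM in other cells of CCl4 mice against 0.876 and 0.614 CPM in those of corn oil mice. Without corn oil 1, 34 genes were called, and Cdk1, which drives entry into mitosis, was not (-1.27 in place of -1.87). The count was 60 without corn oil 2 and 370 without CCl4 1. The largest decreases rested on 1 library: Igha, an antibody heavy chain, had 2258 CPM in cycling endothelial cells of corn oil 2 and 0 in the other 3, and Upk3b, a mesothelial gene, 196 CPM in corn oil 1 alone. Igha had an edgeR adjusted p of 4.93e-19, so low p-values of the interaction test did not require both mice of a group to move.

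Cycling cells among the other Ptprc-positive cells differed between groups at 2 genes. The sums held 198194 and 124923 UMIs from 19 and 13 cells in CCl4 mice, against 182249 and 141832 UMIs from 19 and 13 cells in corn oil mice. Of 3200 genes 0 were higher and 2 lower (0.0625%) by edgeR's quasi-likelihood test, with 141 at an unadjusted p under 0.05, and DESeq2 called 1 higher and 11 lower. Ccl6 had 192 and 224 CPM in cycling cells of CCl4 mice, against 1778 and 1868 CPM in those of corn oil mice (-3.17, SE 0.254, edgeR adjusted p 0.0117). Wfdc17, a secreted protein of activated phagocytes, had 65.6 and 64.0 CPM against 505 and 465 CPM (-2.93, SE 0.335, edgeR adjusted p 0.0397). Leaving out 1 mouse gave 55 to 101 calls, in fits that left a group with a single mouse. No gene of the 10 cell cycle lists was called, and their medians lay between -0.14 and 0.04 against -0.01 over all genes.

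The other cells of that pool had larger sums, 2108660 to 11636865 UMIs, and there 807 of 11625 genes (6.94%) were higher and 1077 (9.26%) lower in CCl4 mice (787 in all without CCl4 1 and 1009 without CCl4 2). All 10 T/NK markers were lower there (median -3.77). Trbc2, a T cell receptor constant gene, had 33.2 and 42.5 CPM in other cells of CCl4 mice, against 430 and 657 CPM in those of corn oil mice (-3.80, edgeR adjusted p 0.000516). In cycling cells it had 1044 and 408 CPM in CCl4 mice against 741 and 804 CPM in corn oil mice, which overlap. The CCl4 difference was thus 3.54 higher in cycling cells by the interaction test (edgeR adjusted p 0.000337), and 8 of 10 T/NK markers were called higher, where 61 of 9743 genes (0.626%) were higher and 49 (0.503%) lower (294 in all without CCl4 2). Lyz2 went the other way by -2.33 (edgeR adjusted p 0.00534), as did 3 of 10 monocyte/macrophage markers. Cycling cells of the pool held 2689 and 825 CPM of the T/NK markers in CCl4 mice against 3051 and 3836 CPM in corn oil mice, and 1826 and 6836 CPM of the monocyte/macrophage markers against 5152 and 11091 CPM. In these sums a change in the mix of cell types and a change of RNA within a type cannot be told apart. Ube2c, a ubiquitin enzyme of mitotic exit, was 2.71 higher by the same test (edgeR adjusted p 0.00663), a call that was lost without corn oil 1 (2.34, adjusted p 0.0669).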

How the data were processed

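Cells of 4 libraries (2 CCl4 and 2 corn oil mice) were analysed. Per the file headers, the deposited values are UMI counts per cell and gene, made by the authors in version 1.9.1 of the BD WTA Rhapsody Analysis Pipeline on GENCODE vM19, and GRCm38 is given in the submitters' processing notes. The lists held 27091 called cells. Those under 200 genes or over 25% mitochondrial UMIs were dropped, which left 1634 to 84656 UMIs per cell. Doublets were scored with Scrublet in scanpy 1.11.5. Its own threshold marked 0, 152, 0 and 1 cells in CCl4 1, CCl4 2, corn oil 1 and corn oil 2, which is too few to have worked in 3 libraries, so no cell was removed in the main counts and the top 5% by score were removed in an alternative.

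The cycling rule, lineage rules, members and gene lists were chosen with earlier results of these data known. Counts were summed per mouse, lineage and state and tested with edgeR 4.0.16 in R 4.3.3 (quasi-likelihood test, TMM, filterByExpr, Benjamini-Hochberg over all genes tested, called at an adjusted p under 0.05). The rule and lineage genes stayed in the fits but were left out of list counts and named genes. The standard error of a log2 difference was not allowed below its counting error. The planned minimum of 10 cycling cells per mouse admitted other Ptprc-positive cells; a minimum of 5, added after seeing the data, admitted Kupffer and endothelial cells, and stellate cells were not tested. DESeq2 1.42.0 was an alternative. For shares, edgeR was fitted to the numbers of cycling cells, with the lineage's cells as offset, beside exact permutation over the 6 splits of the mice. Exact binomial intervals are Clopper-Pearson. For single genes, the text names those of the rule, some of the lists, and some of the called genes with the largest differences in each direction (mean CPM of at least 20, groups not overlapping). The test was tried on simulated data with known changes before use. Python 3.11.15, numpy 2.4.6, pandas 2.3.3, scipy 1.17.1 and matplotlib 3.10.9 were used. Promoter sequences are those of RefSeq, build GRCm38.p6, and all 5 rule genes matched.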

Additional observations from a re-analysis of the deposited data

Results flagged for a closer look

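The CCl4 difference of single genes was compared between cycling and other cells of the same lineage and mouse. By the interaction test of edgeR (adjusted p under 0.05) it differed at 62 of 11305 genes (0.548%) in Kupffer cells. In endothelial cells it differed at 150 of 12603 (1.19%) and in other Ptprc-positive cells at 110 of 9743 (1.13%). Some of the largest values rested on 1 library. In cycling Kupffer cells Igkc, an antibody light chain, had 841 UMIs in corn oil 2, against 1 in corn oil 1 and 0 in both CCl4 mice, and in cycling endothelial cells Igha, an antibody heavy chain, had 826 UMIs in corn oil 2 and 0 in the other 3 mice. Their edgeR adjusted p were 1.15e-10 and 4.93e-19, so a low p of this test did not require both mice of a group to move.

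The share of Kupffer cells that met the S-phase rule, chosen after seeing the data, was 1.29 higher on the log2 scale in CCl4 than in corn oil mice, and 0.81 higher with the rule scaled to 10000 UMIs, while it was lower in CCl4 mice in the other 4 lineages. The difference between lineages was not tested.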

How the results depend on the processing

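Results rest on 2 mice a group, on 31 to 104 cycling cells a mouse, and on single cells in stellate and unassigned lineages, where 1 cell moves a share. Log2 differences of shares ranged, with 1 mouse left out, over -1.05 to -0.05 in Kupffer, -2.71 to -2.23 in stellate, -2.01 to -1.29 in endothelial, -2.32 to -1.42 in other Ptprc-positive and -2.95 to -2.38 in unassigned cells, and 0, 3, 0, 0 and 4 of the 4 fits passed. In Kupffer cells the sign turned with the looser rule (0.12). The endothelial difference passed when thinned (-2.59), scaled to depth (-1.99) and with the looser rule (-1.29). It also passed in cells of 1 lineage rule (-1.59) and as a share of all kept cells (-2.12). Without Ptprc-positive cells, a filter chosen after seeing the data and given without a test, it was -2.16. Other Ptprc-positive cells missed the threshold under the stricter rule (-1.99) and without the highest doublet scores (-1.83), and turned as a share of all kept cells (0.25). Unassigned cells missed it under the stricter rule (-2.16) and as a share of all kept cells (-1.10). The S-phase rule, chosen after seeing the data and given without a test, turned the Kupffer sign (1.29, and 0.81 per 10000 UMIs) and gave -1.40 in endothelial cells; per 10000 UMIs it gave -1.58 in stellate, -1.89 in endothelial, -1.52 in other Ptprc-positive and -2.16 in unassigned cells. The cause of each was not tested.

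Counts of called genes moved more. In cycling Kupffer cells they were 77 (DESeq2) and 6 of 4522 (without the highest doublet scores) in place of 247 of 5116 genes tested. In cycling other Ptprc-positive cells they were 12 (DESeq2), 5 (stricter rule) and 5 (without the highest doublet scores) in place of 2 of 3200. Without the filter on low counts more genes were tested, so counts are given with totals. Cycling cells then gave 601 of 13768 in Kupffer, 471 of 13222 in endothelial and 102 of 12297 in other Ptprc-positive cells. The endothelial count with the filter was 133 of 5243. In Kupffer cells outside the rule they were 2947 of 19210 (no filter) and 155 of 12051 (doublet scores) in place of 1091 of 12216. Endothelial cells had 1688 (DESeq2) and 2472 of 21435 (no filter) in place of 988 of 13365. Other Ptprc-positive cells had 3022 of 18458 (no filter) in place of 1884 of 11625. The interaction in other Ptprc-positive cells gave 215 of 18556 without the filter in place of 110 of 9743. With 1 mouse left out, counts ran in Kupffer, endothelial and other Ptprc-positive cells from 164 to 540, 161 to 311 and 55 to 101 in cycling cells, from 7 to 946, 89 to 1339 and 787 to 1794 in other cells, and from 24 to 48, 34 to 370 and 99 to 294 for the interaction; such a fit takes the lone mouse to vary like the others. None of the named genes turned sign under any alternative run.

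The labels number the mice 1 and 2 in both groups. Deviations of equally numbered mice correlated at 0.0274 to 0.155 over genes. By cycling share, mouse 1 lay on the same side of mouse 2 in both groups in Kupffer, stellate, endothelial, other Ptprc-positive and unassigned cells. With 2 pairs, whether equally numbered mice share more than a number cannot be told. In edgeR the replicate block gave -1.60 for the endothelial share (adjusted p 0.000985) and -1.81 for the share of other Ptprc-positive cells (adjusted p 0.000722). It gave 681 genes in cycling Kupffer cells, 1 in cycling other Ptprc-positive cells and 2191 in other endothelial cells. The stricter rule and cells of 1 lineage rule in Kupffer cells, and the stricter rule and doublet removal in endothelial cells, left a mouse with under 5 cycling cells, and their gene tests were not run.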

Other observations

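Levels of growth genes differed between the groups in some cells outside the rule. Summed levels of the 20 ribosome biogenesis and translation genes in other stellate cells were 3774 and 3320 CPM in CCl4 mice, against 1987 and 1859 CPM in corn oil mice, and in other endothelial cells 2963 and 2605 CPM, against 1870 and 1732 CPM. In other cells of the Ptprc-positive pool the groups overlapped, with 3637 and 3446 CPM in CCl4 mice against 3344 and 3537 CPM in corn oil mice. Summed levels of the 22 licensing genes in other stellate cells were 203 and 219 CPM in CCl4 mice, against 250 and 264 CPM in corn oil mice, the opposite order to other Kupffer cells, which had 443 and 619 CPM against 248 and 221 CPM. These sums were not tested.

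In CCl4 2, 1 cycling cell was neutrophil-like, and the summed neutrophil markers of cycling other Ptprc-positive cells were 9710 CPM in that mouse, against 15.1 CPM in CCl4 1 and 16.5 and 0 CPM in the corn oil mice.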
